A study of Mus musculus with 19 samples.

Results

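At 806 of 44878 open-chromatin regions of the embryonic mouse forebrain, the share of libraries with an accessibility summit differed between Foxc1 mutants and controls in the same direction on both of the diets studied. Of these regions, 279 were higher and 527 were lower in the mutants. The members were chosen from the summit positions of all 19 libraries. The 29112 highest-scoring summits of each library were kept, which is the length of the shortest deposited list, and are called matched summits here. Matched summits within 200 bp of each other were joined into regions, and regions seen in at least 2 libraries were retained. A region became a member where its share of libraries with a matched summit differed by at least 0.4 (40 percentage points), in 1 direction, between Foxc1Mutant and Control and between Mutant+RAdiet and Control+RAdiet. Because these values chose the members, every genotype difference at a member is given as a description, without a test.

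The libraries were bulk ATAC-seq, which reads open chromatin from where a transposase can insert into DNA, and a summit is the single base at which the signal of a called peak is highest. The cells were forebrain neural progenitors of embryonic day 14, enriched on magnets for the surface protein Prom1 (CD133). The 4 groups were Control (Foxc1 WT, no diet, n = 4), Foxc1Mutant (Foxc1 hith/LacZ, no diet, n = 4), Control+RAdiet (Foxc1 WT, RA diet, n = 5) and Mutant+RAdiet (Foxc1 hith/LacZ, RA diet, n = 6), with RA standing for retinoic acid. The dose and timing of the diet are not given in the sources used here, nor whether libraries came from separate embryos, so the spread between libraries may be partly technical. The library titled Foxc1Mutant 1 carries the genotype label Foxc1 WT, against its title. It was kept in the group of its title, and without it the rule found 351 higher and 671 lower regions.

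Foxc1 is a forkhead transcription factor made by the meninges, the membranes that cover the brain, and not by the neural progenitors themselves. The hith allele lowers its function and the LacZ allele replaces it, and embryos carrying both form incomplete meninges over the forebrain. Meningeal fibroblasts make retinoic acid, which enters progenitors, binds nuclear receptors that sit on DNA as heterodimers, and is known to favour the switch from progenitor division to neurogenesis. The study's title names Notch and Sox2, both of which keep progenitors undifferentiated. Since each library is a bulk sample, fewer cells with an open site and less opening per cell cannot be told apart.

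The labelled cell type was checked against marker genes by asking which had a region within 1 kb of a gene end in every library. Of 26 radial glia and neural stem cell genes, 13 did, among them Sox9, Hes5, Slc1a3 and Emx2. The corresponding numbers were 8 of 22 for intermediate progenitor and neurogenic genes, 2 of 15 for endothelial, 1 of 10 for mural, 1 of 15 for meningeal fibroblast (Tbx18, also the mural gene), 1 of 13 for microglia and macrophage (Irf8) and 0 of 12 for erythroid genes. Cell cycle genes (15 of 22) and housekeeping genes (10 of 15) had larger shares than the radial glia list. Of the radial glia list, 4 genes had no region within 1 kb of an end. The check thus does not single out the labelled cell type.

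Only a small share of the members lay on annotated promoters, and 6 of those sequences are shown because they carry the findings described further on. Promoter windows span 250 bases before to 50 bases after a gene's start and are taken from RefSeq, assembly GRCm38.p6, written 5′ to 3′ on the gene's strand. Capitals mark the bases that the member region covers. Col4a4 and Ndufa9 hold the highest-ordered promoter member of each direction, Neurod2 is a neurogenic gene, and Atf3, Sptb and Cltc each hold 1 of a pair of neighbouring members with opposite directions.
Col4a4 (chr1:82586800-82587099, minus strand): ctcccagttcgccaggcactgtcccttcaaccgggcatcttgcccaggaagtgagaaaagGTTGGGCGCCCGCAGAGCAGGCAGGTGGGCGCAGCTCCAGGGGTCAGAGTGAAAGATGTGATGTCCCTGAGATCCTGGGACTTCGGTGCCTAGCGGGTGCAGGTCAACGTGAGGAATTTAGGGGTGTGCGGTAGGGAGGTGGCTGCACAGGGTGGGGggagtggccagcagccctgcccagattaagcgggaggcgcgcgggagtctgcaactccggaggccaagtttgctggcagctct
Ndufa9 (chr6:126849095-126849394, minus strand): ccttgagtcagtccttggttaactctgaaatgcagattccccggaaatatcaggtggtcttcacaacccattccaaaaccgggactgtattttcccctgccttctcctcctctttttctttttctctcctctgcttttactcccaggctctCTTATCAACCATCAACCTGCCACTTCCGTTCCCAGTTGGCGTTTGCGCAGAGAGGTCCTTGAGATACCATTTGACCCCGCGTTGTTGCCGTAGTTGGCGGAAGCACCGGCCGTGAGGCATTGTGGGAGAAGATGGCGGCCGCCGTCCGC
Neurod2 (chr11:98329596-98329895, minus strand): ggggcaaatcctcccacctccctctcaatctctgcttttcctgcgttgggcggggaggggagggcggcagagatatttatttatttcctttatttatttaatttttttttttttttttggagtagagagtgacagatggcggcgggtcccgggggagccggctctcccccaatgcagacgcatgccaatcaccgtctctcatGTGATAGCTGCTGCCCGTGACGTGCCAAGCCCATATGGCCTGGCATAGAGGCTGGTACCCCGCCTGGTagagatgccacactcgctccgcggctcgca
Atf3 (chr1:191183284-191183583, minus strand): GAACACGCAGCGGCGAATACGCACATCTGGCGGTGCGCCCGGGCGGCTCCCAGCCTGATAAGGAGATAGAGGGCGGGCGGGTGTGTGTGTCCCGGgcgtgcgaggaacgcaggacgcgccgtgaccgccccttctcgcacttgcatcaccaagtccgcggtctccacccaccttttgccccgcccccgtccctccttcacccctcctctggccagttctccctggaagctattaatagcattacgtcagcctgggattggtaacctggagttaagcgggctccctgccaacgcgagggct
Sptb (chr12:76710498-76710797, minus strand): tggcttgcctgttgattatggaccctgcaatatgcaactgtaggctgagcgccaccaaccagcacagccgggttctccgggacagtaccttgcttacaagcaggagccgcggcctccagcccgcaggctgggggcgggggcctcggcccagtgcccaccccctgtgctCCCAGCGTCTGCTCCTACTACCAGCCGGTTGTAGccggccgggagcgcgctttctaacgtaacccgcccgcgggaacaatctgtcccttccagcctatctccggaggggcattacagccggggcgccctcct
Cltc (chr11:86757518-86757817, minus strand): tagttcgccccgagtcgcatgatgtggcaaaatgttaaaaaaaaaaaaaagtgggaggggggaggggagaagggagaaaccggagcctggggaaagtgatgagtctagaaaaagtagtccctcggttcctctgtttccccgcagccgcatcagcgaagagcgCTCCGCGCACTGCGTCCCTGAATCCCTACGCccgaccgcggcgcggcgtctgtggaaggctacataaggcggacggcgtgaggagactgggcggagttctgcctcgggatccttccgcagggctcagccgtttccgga

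The Col4a4 region, between the divergent basement-membrane collagen genes Col4a3 and Col4a4 (chr1:82586883-82587039), had a matched summit in 0 of 4 Control, 3 of 4 Foxc1Mutant, 0 of 5 Control+RAdiet and 3 of 6 Mutant+RAdiet libraries. At any rank, a summit was deposited there in 1, 4, 3 and 4 libraries of those groups. The Ndufa9 region (chr6:126849081-126849243), at the start of a gene for a subunit of respiratory complex I, had a matched summit in 4, 1, 5 and 2 libraries in the same group order. At any rank the numbers were 4, 3, 5 and 6, so all of the diet-fed mutants held a summit there and the genotype difference lay in its rank within the library.

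The rule kept 0.622% of all regions as higher and 1.17% as lower in the mutants. Off the diet alone, 3323 regions (7.4%) were higher by at least 40 points and 4104 (9.14%) were lower. On the diet alone, 1576 (3.51%) were higher and 2471 (5.51%) were lower. The genotype contrasts off and on the diet share no library. Of the 3323 regions higher off the diet, 8.40% were also higher on it and 4.81% were lower, and of the 4104 lower off the diet, 12.8% were lower on it and 3.02% higher. Counted from the other contrast, the same overlaps were 17.7% of the 1576 regions higher on the diet and 21.3% of the 2471 lower on the diet. A further 284 regions met the threshold on both diets with opposite signs.

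**Figure D1:**
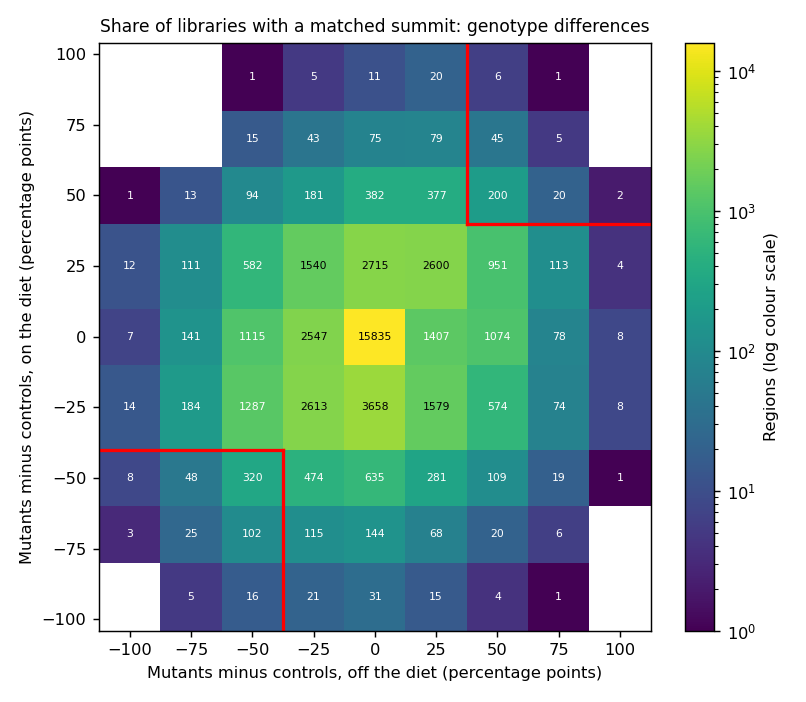
Number of regions by the genotype difference off the diet (horizontal axis) and on the diet (vertical axis), in percentage points of libraries with a matched summit, with a log colour scale and the number in each cell. Red lines enclose the 279 higher regions at the upper right and the 527 lower regions at the lower left. Regions with opposite signs fill the other 2 corners more thinly.

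Most members sat close to the edge of the rule. The median difference was 50 points off the diet in the higher set and -50 in the lower set, and 46.7 and -46.7 points on the diet. The smallest difference inside the rule was exactly 40 points in 29 higher and 85 lower regions, while 195 and 223 regions lay just outside, at 33.3 points. In the higher set the most frequent pattern was 0, 2, 0 and 3 libraries of Control, Foxc1Mutant, Control+RAdiet and Mutant+RAdiet, in 64 regions. In the lower set it was 4, 2, 5 and 3 libraries, in 76 regions. In no member was every mutant library apart from every control library over both diets, and off the diet this held in 2 higher and 11 lower regions.

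The untreated mutants were not alike. Foxc1Mutant 3 and 4 held a matched summit in 97.1% and 93.2% of the higher regions, whereas Foxc1Mutant 1 and 2 held one in 33.0% and 26.5%. In the lower regions, Foxc1Mutant 3 and 4 held 3.61% and 7.59%, against 52.9% in Foxc1Mutant 1 and 62.8% in Foxc1Mutant 2. Foxc1Mutant 1 and 2 thus lay between the 4 Control libraries and the other untreated mutants in both sets. In 166 higher regions (59.5%) and 215 lower regions (40.8%) the off-diet difference came from Foxc1Mutant 3 and 4 and from no other untreated mutant. In all 4 untreated mutants it was seen in 42 higher (15.1%) and 118 lower regions (22.4%). Leaving out single libraries gave from 131 higher regions (without Foxc1Mutant 3) to 587 (without Mutant+RAdiet 6), and from 327 lower regions (without Foxc1Mutant 3) to 916 (without Mutant+RAdiet 5). Leaving out a Mutant+RAdiet library also makes the threshold on the diet easier to meet. Leaving out untreated mutants likewise changes which library numbers meet the threshold off the diet, so none of these counts is like for like. With both Foxc1Mutant 3 and 4 left out, an alternative added after seeing the data, the rule found 176 higher, 297 lower and 363 opposite regions, and of the original members 81 higher (29.0%) and 226 lower (42.9%) remained.

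Among the other groups, the 4 Control libraries held between 6.81% and 14.7% of the higher regions and between 82.4% and 91.5% of the lower regions. The 5 Control+RAdiet libraries ranged from 10.4% to 29.7% and from 69.8% to 80.6%. The 6 Mutant+RAdiet libraries ranged from 41.2% to 88.2% of the higher and from 12.7% to 37.6% of the lower regions. On the diet, where the rule used all 11 libraries, every mutant library was above every control library in the higher set and below every one in the lower set, with Mutant+RAdiet 6 nearest to the controls, an order that the choice of members sets. The group means in the higher set were 9.77% ± 3.42 (SD, n = 4) in Control, 62.5% ± 37.9 (SD, n = 4) in Foxc1Mutant, 20.6% ± 8.45 (SD, n = 5) in Control+RAdiet and 71.0% ± 16.7 (SD, n = 6) in Mutant+RAdiet. In the lower set they were 86.5% ± 3.75, 31.7% ± 30.5, 75.5% ± 3.90 and 24.1% ± 9.82 with the same n.

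**Figure D2:**
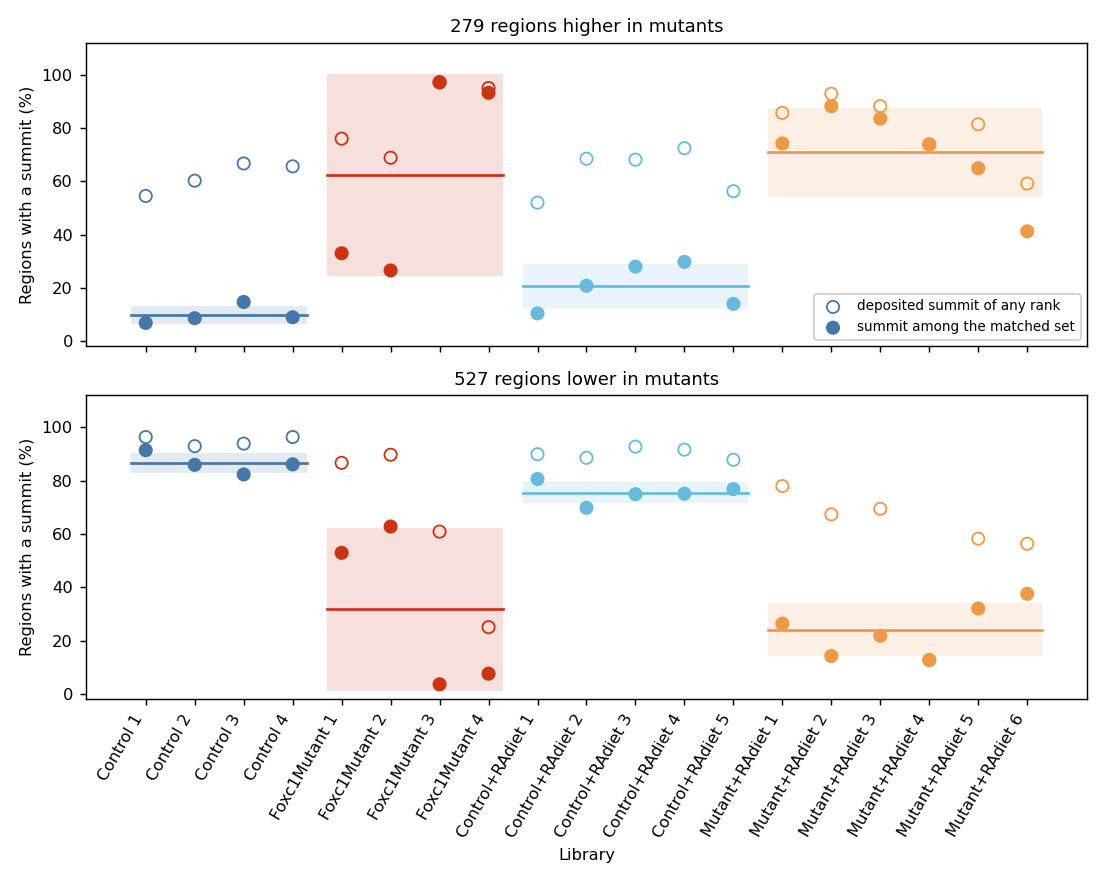
Percent of the 279 higher and 527 lower regions with a matched summit (filled points) or a deposited summit of any rank (open points) in each of the 19 libraries, in order of group, with the mean of the matched values as a line and 1 SD on each side as a shaded band. Foxc1Mutant 1 and 2 lie apart from Foxc1Mutant 3 and 4 in both panels, and the spread in Foxc1Mutant is the widest of the 4 groups.

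Libraries differed in the strength of their summits. The deposited lists held from 29112 summits (Mutant+RAdiet 4) to 122591 (Control 4). The median score of the matched summits, a −log10 peak significance that grows with depth and signal, was 53.1 to 111 in Control, 88.8 and 105 in Foxc1Mutant 1 and 2, and 34.9 and 10.7 in Foxc1Mutant 3 and 4. On the diet it was 28.1 to 76.7 in controls and 7.33 to 45.5 in mutants. In 7 libraries the median score lay between 25 and 50. The 4 of mutant genotype among them held 74.2% to 97.1% of the higher and 3.61% to 26.4% of the lower regions. The 3 of control genotype held 10.4% to 20.8% and 69.8% to 80.6%. The choice of members sets this split by genotype, and the part of summit strength in the membership of regions was not tested.

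**Figure D3:**
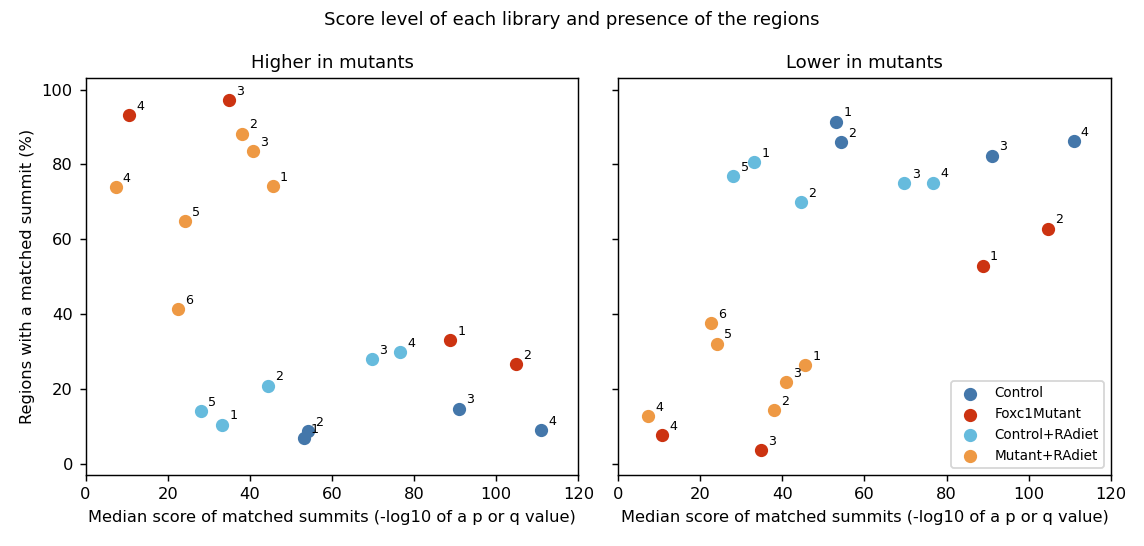
Percent of higher and lower regions with a matched summit against each library's median matched score (a −log10 value), 1 numbered point per library, coloured by group. Foxc1Mutant 1 and 2, at scores of 88.8 and 105, fall among the untreated controls in score, and Foxc1Mutant 3 and 4, at 34.9 and 10.7, fall among the diet-fed mutants.

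The members were weak summits within their libraries. Where present, a matched summit at a higher region had a median rank of 21608 of 29112 and at a lower region of 23116.5, against 14228 over all regions and 22508 over the 17247 regions seen in 4 to 15 libraries. Those are the regions whose number of libraries allows the rule to be met, and they are called eligible here. A library without the matched summit could still hold a deposited summit of lower rank. In the higher set, 55.7% of the 2115 cases in which a control library lacked the matched summit had a deposited summit inside the region, and 92.2% had one within 1 kb. In the lower set, 45.7% of 3838 missing cases in mutant libraries had one inside and 75.8% within 1 kb. Counted over the missing cases of all libraries, a deposited summit lay inside the region in 52.2% in the higher set and 48.6% in the lower set. The same count gave 49.1% in eligible regions and 39.2% in all regions, so the lower set was near the eligible regions. When a summit of any rank was counted, 57 higher (20.4%) and 82 lower regions (15.6%) still met the rule. A summit of any rank lay in 61.7% ± 5.60 of higher regions in Control (SD, n = 4) and in 84.2% ± 14.0 in Foxc1Mutant (SD, n = 4). In the lower set the values were 94.9% ± 1.74 and 65.6% ± 30.0.

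Higher and lower regions differed in where they lay. Of the higher regions, 36.2% were more than 100 kb from the nearest end of a protein-coding gene, against 14.2% of the lower regions, 22.7% of eligible regions and 19.7% of all regions. The median distance was 54.0 kb in the higher set, 16.7 kb in the lower set, 24.9 kb in eligible regions and 16.3 kb in all regions. A split of this kind was not particular to the members. Of all regions higher in mutants off the diet, members included, 29.5% lay beyond 100 kb, and of those higher on it 29.4%. For regions lower in mutants these shares were 14.5% off the diet and 17.6% on it. Within 1 kb of a gene end lay 11.1% of higher and 13.7% of lower regions, both below the 15.98% of eligible regions and the 26.5% of all regions. About the same share of each set lay inside a gene body, 51.3% and 49.9% against 49.4% of all regions. The higher regions were wider, with a median of 129 bp against 74 bp in the lower set and 97 bp in all regions, and they were seen in fewer libraries, with a median of 8 against 10. Distance and the number of libraries are not independent of the rule's measure, so these shares are descriptions.

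**Figure D4:**
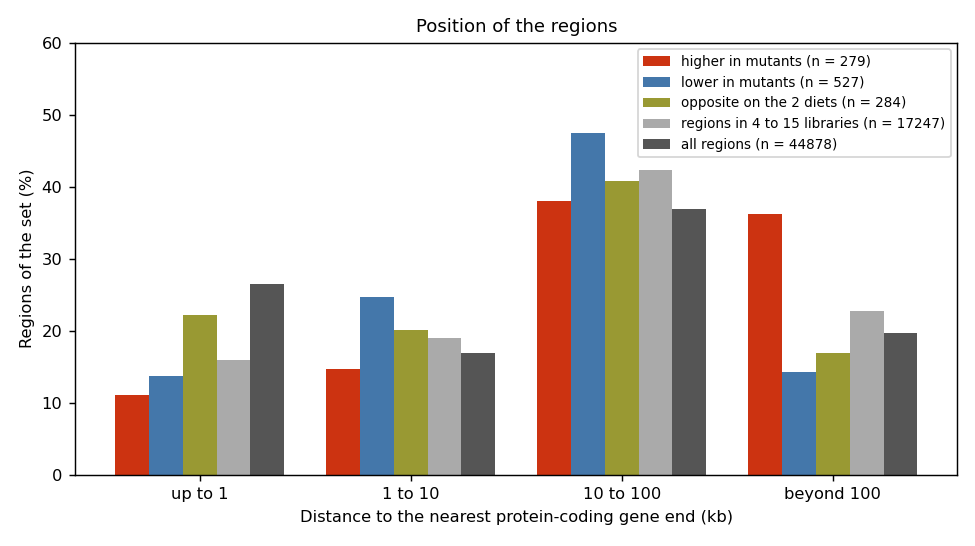
Percent of regions in 4 classes of distance to the nearest end of a protein-coding gene, for the higher, lower, opposite, eligible and all regions. Among these sets the higher regions have the tallest bar beyond 100 kb (36.2%) and the lower regions the tallest between 10 and 100 kb (47.4%).

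Each member within 100 kb of a gene end was given to its nearest protein-coding gene, which placed 178 higher regions at 177 genes and 452 lower regions at 439 genes. The first 12 of each direction, ordered by the sum of the differences on both diets, are described next. The region with the largest sum of the higher set lay 26.7 kb from the predicted gene Gm12695 (chr4:96696778-96696847). A summit was deposited there in 3 of 4 Foxc1Mutant and 5 of 6 Mutant+RAdiet libraries, and in 0 of 9 control libraries at any rank. Its ranks were 20196, 16390 and 14854 in Foxc1Mutant 1, 3 and 4, and 24268, 15636, 23689, 14521 and 23160 in Mutant+RAdiet 2 to 6. Foxc1Mutant 2 and Mutant+RAdiet 1 were without it, and none of the 11 libraries without the summit had another within 1 kb. Each of the 11 had a deposited summit of some rank within 1228 bp, however.

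Siah3, a member of the Siah family related to ubiquitin ligases, held the strongest summits among the first 12 (chr14:75518607-75518615, inside the gene). The ranks were 5612 and 4387 in Foxc1Mutant 3 and 4, and 4731, 4540, 4446, 8106 and 20933 in Mutant+RAdiet 2 to 6. The 9 control libraries, Foxc1Mutant 1 and 2 and Mutant+RAdiet 1 had no summit in the region. In 8 of those 12 libraries a matched summit lay 202 to 252 bp away, just beyond the joining distance.

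Several other leading higher regions also had a summit nearby in the libraries that lacked them. At the Mtss1 region (chr15:59154715-59154865), named for an actin and membrane binding protein, all 10 libraries without the summit had a matched summit 908 to 991 bp away. At Plekhg1 (chr10:3741141-3741260), all 12 had one 747 to 785 bp away, and at Sptb (chr12:76710154-76710286), the gene of erythroid beta spectrin, all 12 had one 310 to 343 bp away. The libraries without these summits thus had a matched summit within 1 kb of them.

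Regions inside or near Nln (a peptidase), Tanc1 and Dlg2 (postsynaptic scaffold proteins), Smyd3 (a methyltransferase), Gtdc1, Man2a1 (a Golgi mannosidase) and Slc22a22 (an organic anion transporter) complete the first 12, of which those at Smyd3, Dlg2 and Man2a1 were more than 100 kb from the gene's ends. The Nln region (chr13:104036654-104036749) had a matched summit in 0, 4, 1 and 4 libraries of Control, Foxc1Mutant, Control+RAdiet and Mutant+RAdiet. At any rank, 4, 4, 3 and 5 libraries had one. All 4 controls thus held the Nln summit below the matched rank, from 30432 to 37748.

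Meis2, a homeodomain transcription factor known to respond to retinoic acid, had the largest sum of the lower set (chr2:116020081-116020159, inside the gene and 47.4 kb from its nearer end). All 4 Control libraries held the matched summit, at ranks 19527, 22434, 21938 and 20042. In Control+RAdiet, libraries 1, 3, 4 and 5 held it, at 14381, 17028, 27719 and 21305. Among mutants it was matched only in Mutant+RAdiet 5, at rank 26510, and 3 further mutants had it beyond the matched number, at 30393 (Foxc1Mutant 2), 38849 (Foxc1Mutant 3) and 36552 (Mutant+RAdiet 1). Of the 7 libraries with no summit in the region, 6 had one 59 to 826 bp away, and 4 of these had a matched one. Such neighbours were also seen at the lower regions of Serpinb8 (9 of 9 libraries without a summit, 7 of them with a matched one), Gm41099 (7 of 8, 4 matched) and Ptprd (5 of 5, 3 matched).

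The other leading lower regions lay at genes of signalling and adhesion among others. Efnb3, an ephrin that guides axons, had a region 918 bp from its end (chr11:69553059-69553174) with a matched summit in 4 of 4 Control, 1 of 4 Foxc1Mutant, 5 of 5 Control+RAdiet and 1 of 6 Mutant+RAdiet libraries. All 6 diet-fed mutants except 1 had a summit of some rank there. Regions at Arhgef3 (chr14:27187173-27187265) and Rnf144b (chr13:47152497-47152577), a guanine nucleotide exchange factor and a ubiquitin ligase, were matched in 4 Control and 3 Control+RAdiet libraries and in 0 of 10 mutant libraries. At any rank the Rnf144b summit was in 3 of 4 Foxc1Mutant and 3 of 6 Mutant+RAdiet libraries, from rank 29851, just past the matched number. The Arhgef3 summit was in 3 and 1 of them, from rank 31607. The genotype difference at Rnf144b thus lay largely in rank. Chd7, a chromatin remodeller needed for brain development (chr4:8750924-8750988), was matched in 4, 0, 5 and 3 libraries, and at any rank in 4, 3, 5 and 5. The rest were at Gm41099, Serpinb8, Tmem108, Tmem132c, Dpp10 (a potassium channel partner), Ptprd (a receptor phosphatase) and Ccdc13, with those of Serpinb8, Tmem132c, Dpp10 and Ptprd more than 100 kb from the gene's ends.

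**Figure D5:**
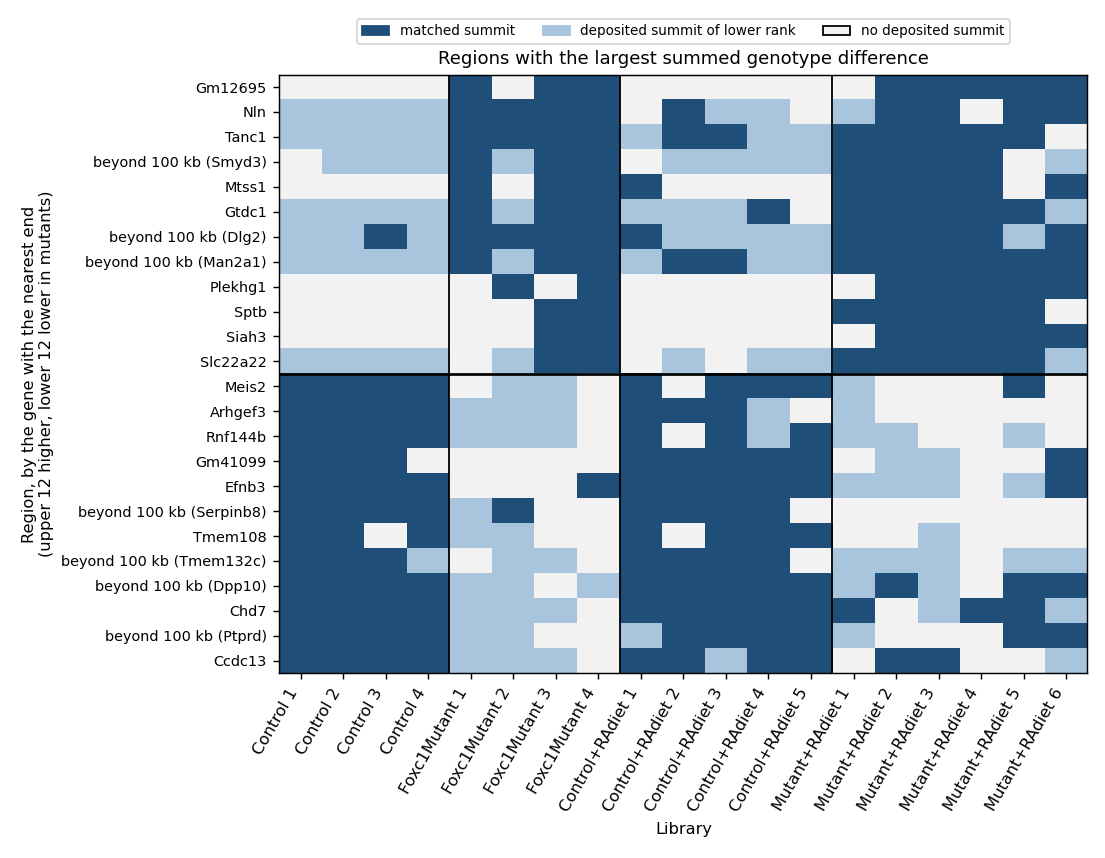
Matched summits (dark cells), deposited summits of lower rank (light blue cells) and no summit (pale cells) for the first 12 higher and 12 lower regions, in rows named by nearest gene, in each of the 19 libraries in columns by group. The Gm12695 row is pale in all controls, and the Meis2 row is dark in 1 mutant library.

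Gene lists for the tissue were read against the share that each list holds of all regions. Over 276 genes in 16 lists, 5 higher regions (1.79%) and 19 lower regions (3.61%) were at a listed gene, against 2.45% of all regions. The retinoic acid list, of 23 genes for its synthesis, receptors and targets, held 0 higher and 5 lower regions, which was 0.949% of the lower set against 0.201% of all and 0.255% of eligible regions. Counts this small rest on single regions in every list. Stra6, the cell-surface receptor for retinol uptake, had 2 lower regions, matched in 3, 1, 3 and 1 libraries (chr9:58060809-58061105) and in 4, 2, 2 and 0 (chr9:58065678-58065764). The first is inside the neighbouring gene Ccdc33 and the second inside both genes. At any rank the numbers were 3, 3, 5 and 5 at the first Stra6 region, where the difference lay mainly in rank. They were 4, 3, 5 and 3 at the second. Aldh1a1, an enzyme that makes retinoic acid (chr19:20650231-20650311), was matched in 4, 2, 4 and 2 libraries. Rxra, the shared partner of retinoic acid receptors (chr2:27772042-27772109), was matched in 2, 0, 2 and 0. With Meis2 they make up the 5 lower regions. At any rank the Aldh1a1 summit was in all 4 Foxc1Mutant and 5 of 6 Mutant+RAdiet libraries and the Rxra summit in 4 and 4, so the lower share at both was again a matter of rank.

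The neurogenic list had 2 higher regions and 1 lower (0.717% and 0.190% of the sets, against 0.265% of all regions). Neurog2, the proneural factor that starts cortical neurogenesis, had a region inside the gene, 1303 bp from its nearer end (chr3:127634228-127634333). It was matched in 0 of 4 Control, 3 of 4 Foxc1Mutant, 3 of 5 Control+RAdiet and 6 of 6 Mutant+RAdiet libraries. Its ranks were 6480, 5722 and 5017 in Foxc1Mutant 1, 3 and 4, 14586, 9290 and 11481 in Control+RAdiet 1, 4 and 5, and 3658 to 25373 in Mutant+RAdiet. No untreated control had any summit there. The diet-fed controls with a summit ranked within the range of the diet-fed mutants and behind the 3 untreated mutants, and the 7 libraries without the summit had none within 1 kb. Each of those 7 had a deposited summit of some rank within 1470 bp. Neurod2, which acts later in neuronal differentiation, was lower at its promoter (chr11:98329626-98329693), with 4, 1, 5 and 3 libraries. At any rank the numbers at Neurod2 were 4, 3, 5 and 4, so the difference lay mainly in rank.

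The Notch list of 28 genes held 1 higher region and 0 lower, which was 0.358% of the higher set and near its 0.261% of all regions. The region lay 14.1 kb from Hes5, the Notch-induced repressor of proneural genes (chr4:154946533-154946576), with 1, 3, 1 and 5 libraries. At any rank a summit was there in 2, 4, 5 and 5 libraries, so the difference on the diet lay in rank. Hes5 is also on the radial glia list, which held 0.358% of the higher and 0.380% of the lower set against 0.435% of all regions and whose lower regions were at Sox3 (chrX:60989203-60989272) with 3, 0, 4 and 1 libraries and Sox9 (chr11:112840491-112840561) with 4, 2, 4 and 2, both transcription factors of neural progenitors. No member was assigned to Sox2. The Wnt and BMP list held 0 higher and 4 lower regions (0.759% of the lower set against 0.305% of all regions), at the ligands Wnt7a (3, 0, 3 and 1 libraries) and Bmp7 (3, 1, 5 and 2), the secreted Dickkopf protein Dkk3 (3, 1, 4 and 2) and the Wnt effector Tcf7l2 (2, 0, 3 and 1). Single lower regions (0.190% of the set each) were at Gli2 (4, 2, 5 and 2), a Hedgehog effector whose list held 0.209% of all regions, and at Nfia (4, 2, 3 and 0) of the gliogenesis list (0.172%). A single higher region (0.358%) was at Sp8 (0, 2, 0 and 3) of the ganglionic eminence list (0.152%). Cyclin D2, Ccnd2, which drives progenitor division, had 2 lower regions, with 4, 2, 5 and 3 and with 3, 0, 2 and 0 libraries, and they were the cell cycle list's only members (0.380% of the lower set against 0.134% of all regions). At any rank Sox3 had 4, 4, 5 and 3 libraries, Sox9 4, 2, 5 and 5, and Gli2 4, 3, 5 and 5. Nfia had 4, 3, 5 and 4, Sp8 3, 4, 5 and 4, and Ccnd2 4, 2, 5 and 5 and 3, 2, 3 and 3. Wnt7a had 4, 3, 4 and 2, Bmp7 4, 2, 5 and 3, Dkk3 3, 2, 4 and 4, and Tcf7l2 4, 3, 4 and 4. At several of these regions the difference on 1 or both diets thus lay in rank.

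Of the lists of other cell types, the endothelial list had 0 higher and 1 lower region (0.190% of the lower set against 0.0691% of all regions), 70.1 kb from the vascular receptor gene Kdr. The Kdr summit was matched in 4, 2, 5 and 3 libraries and deposited at any rank in 4, 3, 5 and 5. The microglia and macrophage list had 0 higher and 2 lower (0.380% against 0.0490%), a larger ratio to its share of all regions than that of the retinoic acid list, at Aif1 (4, 2, 5 and 1 libraries) and Runx1 (4, 2, 5 and 3). That ratio rests on these 2 regions. At any rank the numbers were 4, 2, 5 and 3 at Aif1 and 4, 4, 5 and 6 at Runx1, so every library held the Runx1 summit. The mural, meningeal fibroblast, erythroid, and cortical hem and choroid plexus lists had none in either direction. Genes with 2 lower regions each included Akap6, Anks1, Aym1, Ccnd2, Col22a1, Impg1, Lbx1, Mycl, Pnoc, Rtn1, Slit1 and Stra6. In the higher set only Tanc1 had 2.

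Members of opposite direction lay side by side. Of the members, 20 pairs were within 1 kb of each other, each with 1 higher and 1 lower region, and no such pair shared a direction. Any other region, member or not, lay within 1 kb of 21.1% of higher and 10.8% of lower members, against 15.8% of eligible and 11.9% of all regions. The gap between the regions of a pair was 206 to 908 bp, with a median of 293 bp. Over the 20 pairs and 19 libraries, exactly 1 of the 2 regions had a matched summit in 372 of 380 cases (97.9%), both had one in 3 and neither in 5. In 15 pairs this held in every library. Within a group the libraries often split between the 2 positions: at Lypd1, Uevld and Mrps36 the Foxc1Mutant libraries divided 2 and 2 and the Mutant+RAdiet libraries 3 and 3, and at Cltc, Pcsk7 and Pom121l2 the Control libraries divided 2 and 2. The 2 regions of a pair are not independent members. The counts over pairs use the same matched summits that chose the members. No like count was made for neighbouring pairs of other regions, so they are descriptions without a background.

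The Atf3 pair, at the start of a stress-induced transcription factor, lies in part on the sequence printed above. The higher region covers the upstream part of the window (chr1:191183489-191183593) and was matched in 0, 2, 2 and 5 libraries. The lower region lay 235 bp away inside the gene (chr1:191183214-191183254) and was matched in 4, 2, 3 and 1. At Sptb the lower region is the one inside the promoter window (chr12:76710596-76710629), with 4, 2, 5 and 1 libraries, and the higher region lay 310 bp away inside the gene, with 0, 2, 0 and 5. At Cltc, the gene of clathrin heavy chain, the lower region in the window (chr11:86757625-86757655) had 2, 0, 3 and 1 libraries, and the higher region 226 bp further upstream (chr11:86757881-86757946) had 2, 4, 2 and 5.

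Members were also counted around Foxc1 itself (chr13:31806646-31810635). Within 10 Mb of the gene lay 350 regions (0.780% of all), 7 of the higher members (2.51%) and 2 of the lower (0.380%). No member lay at Foxc1, and the nearest were 5.24 Mb before it and 2.97 Mb after it. On the side before the gene, members included an opposite pair at Pom121l2 and regions at 3 histone genes, with H4c9 at 2, 4, 2 and 5 libraries, H2bc9 at 1, 3, 0 and 3 and H1f3 at 1, 3, 1 and 4.

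Promoter windows held 17 higher regions (6.09%) and 37 lower regions (7.02%), against 9.51% of eligible and 19.7% of all regions. Their median GC content was 61.3% in the 18 higher and 58.5% in the 42 lower windows, against 62.7% in the windows of all regions and 52.7% in the 32817 windows of the table. Short motifs were searched on both strands. AGGTCA, the core bound by retinoic acid receptors and other nuclear receptors, was in windows of 3 higher (17.6%) and 6 lower regions (16.2%), against 10.9% of all regions at a window. The AP-1 site TGAGTCA was in windows of 0 higher and 4 lower regions (10.8%), against 2.96%, and the Ndufa9 window holds 1 of them, outside the capitals. CAGCTG, an E-box of proneural factors, was in 4 (23.5%) and 7 (18.9%), against 16.1%. GTGGGAA, the RBPJ core of Notch signalling, was in 2 and 3 against 6.603%, ATTGT, the SOX core, in 4 and 6 against 19.6%, and TGTTTAC, a forkhead site, in 0 and 1 against 2.31%. These windows reach beyond the regions, and with so few of them each share rests on single windows.

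The diet was compared within genotype at each region, since the rule did not use that contrast directly. An exact permutation test of the share of libraries with a matched summit, stratified on genotype and two-sided, gave an unadjusted p under 0.05 for 11 higher regions (3.94%) and 32 lower regions (6.07%). Together these are 43 members, and the exact test gave 6 without Foxc1Mutant 2, 10 without Foxc1Mutant 1 and 28 without Control 3, Control 4 or Mutant+RAdiet 5. The same held for 4.15% of all regions (1.97% higher and 2.18% lower on the diet) and 10.5% of the eligible regions (5.05% higher and 5.47% lower). Of the higher regions 9 were higher and 2 lower on the diet, and of the lower regions 3 were higher and 29 lower. After Benjamini-Hochberg adjustment over all 44878 regions this exact test called 0 regions, and the lowest adjusted p was 0.779. In controls alone and in mutants alone, 0 members had an exact p under 0.05, as against 2.62% and 1.21% of all regions. The rule itself bounds this test, because only 6 of the 120 library patterns it allows reach that p, with 0.0317 as the smallest, so the members' count was not read against the background. The regions at that level included the second Stra6 region, with an exact p of 0.0317, which had 4 of 4 and 2 of 4 libraries off the diet and 2 of 5 and 0 of 6 on it, and the Nfia region, with an exact p of 0.037. By direction alone, the share on the diet was above that off the diet, stratified on genotype, in 165 higher and 117 lower regions and below it in 50 and 334. As shares these were 59.1% above and 17.9% below in the higher set and 22.2% above and 63.4% below in the lower set, against 33.7% and 37.0% of all regions and 48.8% and 50.4% of eligible regions. The rule bounds these directions too. A higher region with 0 of 4 Control and 2 of 4 Foxc1Mutant libraries needs at least 3 of 6 Mutant+RAdiet libraries, so it cannot fall below. A lower region with 4 and 2 off the diet allows at most 3 of 6, so it cannot rise above. These shares were therefore not read against the background.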

How the data were processed

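Summit lists of 19 bulk ATAC-seq libraries (Control 4, Foxc1Mutant 4, Control+RAdiet 5, Mutant+RAdiet 6) were used as the authors deposited them, 1 list per library. The submitters' processing notes name BWA, MACS2, Signac and DiffBind, without versions, and which of them made these files is not given in the sources used here. The deposited value of each summit is a −log10 of a peak p or q value, which grows with depth. Read depth was unknown, so each list was cut to its 29112 highest-scoring summits, joined at 200 bp, and presence was compared with no count model.

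The regions and gene lists were chosen with earlier results of these data known. Genes come from the RefSeq table of GRCm38.p6, with distances to the nearer end of 21887 protein-coding genes, and no gene beyond 100 kb was assigned. Named regions were the first 12 of each direction by the sum of both differences, members at listed genes, members of pairs within 1 kb, and promoter windows, and any other was chosen after its values were seen. A few regions that these rules name are not reported here. The diet was tested by exact permutation stratified on genotype, with Benjamini-Hochberg adjustment over all regions. On simulated data with 44878 regions, 100% of 200 changed regions had p under 0.05 and 35.5% passed adjustment, against 1.12% and 0 of unchanged regions. The changed regions were simulated as present in nearly all libraries on the diet and nearly none off it, in both genotypes. Members cannot show such a switch under the rule, so these shares do not give the test's power for members or for smaller differences. Alternatives covered the matched number, joining distance, threshold, minimum libraries, gene table, replicate block and leaving out each library. No 2 libraries shared more than 0.00144% of identical summits. Python 3.11.15, numpy 2.4.6, pandas 2.3.3, scipy 1.17.1 and matplotlib 3.10.9 were used.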

Additional observations from a re-analysis of the deposited data

Results flagged for a closer look

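Mutant+RAdiet 4 stood apart from the other 5 diet-fed mutants at the lower regions: 12.7% of them had a deposited summit of any rank there, and the gap to the next library was 0.669 of the group's range. Its list is the shortest, with 29112 summits, so every deposited summit of this library is a matched one. Of 16 groups of values checked in this way this was the 1 that passed, and chance flags about 1 in 20. Without this library, at the same matched number, the rule found 513 higher and 690 lower regions. Leaving out any other single Mutant+RAdiet library raised both counts too.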

How the results depend on the processing

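The direction at a member is fixed by the rule, so only counts can move, and here they are given as higher, lower and opposite regions (279, 527 and 284 as reported). Joining at 100 or 400 bp and a minimum of 4 libraries kept all 3 counts within 1.5 times. Using all deposited summits gave 248, 2383 and 694, with 53 higher and 26 lower members shared, and the cause was not tested. Taking 14556 summits per library gave 137, 220 and 143, with only 13 higher and 13 lower members shared. A threshold of 0.3 gave 560, 895 and 512, and 0.5 gave 138, 254 and 79. Leaving out the shortest list and matching to the next gave 774, 1274 and 806, with 57 higher and 50 lower members shared. Leaving out 1 library at a time gave 131 to 587, 327 to 916 and 241 to 558. The fewest higher and lower regions were found without Foxc1Mutant 3 (131 and 327) and Foxc1Mutant 4 (166 and 359), and the most without Mutant+RAdiet 6 (587 and 897), 5 (548 and 916), 4 (513 and 690), 1 (472 and 895), 3 (455 and 820) and 2 (413 and 738). With 5 libraries per genotype on the diet, a difference of 2 libraries meets 40 points, while 2 of 6 libraries is 33.3 points. Leaving out a Mutant+RAdiet library thus loosens the rule, so these counts are not like for like with those reported. The same caution holds for counts without untreated mutants, where the library numbers that meet the threshold off the diet change. Opposite regions passed 1.5 times the reported count without each Mutant+RAdiet library, from 439 (1) to 558 (2). Among alternatives added after seeing the data, leaving out both Foxc1Mutant 3 and 4 gave 176 and 297 (363 opposite), and leaving out both Foxc1Mutant 1 and 2 gave 637, 935 and 597.

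For the diet, 43 members and 1864 of all regions had an exact p under 0.05. With the replicate number as a block these were 0 and 405, in controls alone 0 and 1176, in mutants alone 0 and 543, with all deposited summits 15 and 911, and without both Foxc1Mutant 3 and 4 98 and 2957. Leaving out 1 library gave 6 to 46 members and 1242 to 2212 regions, with 6 members without Foxc1Mutant 2, 10 without Foxc1Mutant 1 and 28 without Control 3, Control 4 or Mutant+RAdiet 5. None passed adjustment in any of these. The replicate numbers did not pair the samples: over 8 same-numbered diet pairs the correlations of deviations ran from -0.104 to 0.143, with 1 over 0.1.

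The share of higher regions within 1 kb of a gene end rose from 11.1% to 15.8% when all genes were used and was 19.7% within 5 kb. For lower regions it was 13.7%, 18.4% and 24.9%. Missing matched summits had a deposited summit inside the region in 55.7% (higher) and 45.7% (lower), within 200 bp in 73.7% and 66.8%, and within 1 kb in 92.2% and 75.8%. Score limits a missing summit of low rank, since the lists give no read depth.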

Other observations

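The 284 regions with opposite genotype differences on the 2 diets were nearer to genes than the members. Of these, 160 were higher in mutants off the diet and lower on it, and 124 the reverse. Within 1 kb of a gene end lay 22.2% of them, against 11.1% of higher and 13.7% of lower members, and their median distance was 14.0 kb. These are descriptions of sets chosen by the same shares.

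Counting summits of any rank, 4 members matched the genotype in 17 or more of 19 libraries, and they were singled out after their values were seen. Besides the Gm12695 region, a higher region 430 kb from Tbc1d2b (chr9:90701268-90701422) had a summit in 4 of 4 Foxc1Mutant, 4 of 6 Mutant+RAdiet and 0 of 9 control libraries. A lower region 738 kb from Cdh20 (chr1:104029844-104029945) had one in 9 of 9 control libraries, in 1 of 4 Foxc1Mutant and in 0 of 6 Mutant+RAdiet libraries. A lower region inside Nmnat2, an enzyme that protects axons (chr1:153014825-153014899), had one in 9 of 9 control libraries, in 2 of 4 Foxc1Mutant and in 0 of 6 Mutant+RAdiet libraries.

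By chromosome, lower members were most frequent on chromosome 11, with 51 regions (1.72% of its regions), where 0.37% of regions were higher members. Higher members made up 1.05% of regions on chromosomes 3 and 14 and 0.24% on chromosome 9.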
